A study of Caenorhabditis elegans with 18 samples.

Results

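C-type lectin genes (*clec* genes) encode proteins with a fold that in many animals binds sugars on cell surfaces and on microbes. In *Caenorhabditis elegans* they form one of the largest gene families, most members are predicted to be secreted or set in the membrane, and many are made in the intestine, where several are induced by bacterial infection. Others are made in the germline, in sperm-producing tissue or in unknown places, and for most members no function is known. All mRNA features of the study whose name begins with *clec-* were taken as members, which gave 264 genes of 29970 in the mRNA table. Of these, 239 are protein coding and 25 are annotated as pseudogenes.

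The mRNA and small RNAs were sequenced from gravid adults of 3 genotypes, all grown on the nonpathogenic *Escherichia coli* strain OP50 at 20 °C and collected 72 h after synchronization, with 3 biological replicates each and so 18 libraries in all. Wildtype was N2. The mutants carried either of 2 deletion alleles of *tcer-1*, which encodes a transcription elongation and splicing factor that represses immunity: *tcer-1(tm1452)* (strain CF2166) and *tcer-1(glm27)* (strain AGP278), the latter a deletion of the coding region made by CRISPR-Cas9. Each allele was present in 1 strain, the study describes *tcer-1(tm1452)* animals as developmentally asynchronous and *tcer-1(glm27)* animals as not, and whole animals were sequenced. The mutants are named by their allele from here on. Fewer cells of a type and less RNA per cell cannot therefore be told apart.

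The mRNA values are normalized counts, the reads of a gene after division by the size factor of its library. The steps between low values put the depth at an estimated 17998459 to 27818071 reads per mRNA library and 12500000 to 16666667 per small RNA library. The normalized count of *tcer-1* itself was 5877, 6034 and 6346 in wildtype, 959, 862 and 1026 in *tm1452*, and 529, 496 and 470.0 in *glm27*. It was lower in every mutant library than in wildtype, and counts remained in *glm27* too, although that allele is described as a deletion of the coding region. Several marker lists moved with the genotypes, and most stand beside the results they touch. Body wall muscle markers (3 genes) summed to 17251 to 23268 in wildtype, 68846 to 76325 in *tm1452* and 25354.5 to 29741 in *glm27*. Neuron markers (3 genes) summed to 1929 to 2008, 1729 to 1775 and 1783 to 1802 in the same order. The part of the muscle and neuron lists in the results was not tested. The summed major sperm protein mRNAs (35 genes, 3 at 0 in every library) lay between 556 and 762 in wildtype, between 20242 and 23318 in *tm1452* and between 4086 and 5262 in *glm27*. The summed moulting genes (8 genes) lay between 2452 and 3598, 1514 and 1918, and 3947 and 4393 in the same order, and 6 male-specific genes, a list added after values were seen, between 25.1 and 35.2, 36.0 and 39.4, and 58.7 and 71.0.

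For 5 members the 250 bases before the annotated gene start are shown, because they span several patterns of change and differ in a short motif that GATA-type transcription factors of the intestine bind. Each was read 5′ to 3′ on the strand of the gene from the WBcel235 genome (RefSeq assembly), and capitals mark TGATAA on either strand, which reads TTATCA on the opposite strand. The first pair, *clec-51* (chrIV:8163801-8164050, minus strand) and *clec-52* (chrIV:8168761-8169010, minus strand), are neighbours that rose in both alleles, *clec-4* (chrII:12581114-12581363, minus strand) fell in both, *clec-137* (chrII:4618091-4618340, minus strand) rose in *glm27*, and *clec-196* (chrIV:17276706-17276955, plus strand) moved in opposite directions.
clec-51: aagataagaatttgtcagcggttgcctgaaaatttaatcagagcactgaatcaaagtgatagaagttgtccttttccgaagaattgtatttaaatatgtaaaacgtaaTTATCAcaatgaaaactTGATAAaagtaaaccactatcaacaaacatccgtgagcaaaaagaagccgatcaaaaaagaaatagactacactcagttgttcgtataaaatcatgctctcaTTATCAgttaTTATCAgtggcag
clec-52: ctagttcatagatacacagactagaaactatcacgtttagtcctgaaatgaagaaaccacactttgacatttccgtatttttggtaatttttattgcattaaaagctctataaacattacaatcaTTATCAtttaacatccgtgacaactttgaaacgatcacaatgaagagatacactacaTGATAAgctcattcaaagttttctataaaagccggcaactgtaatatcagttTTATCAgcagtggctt
clec-4: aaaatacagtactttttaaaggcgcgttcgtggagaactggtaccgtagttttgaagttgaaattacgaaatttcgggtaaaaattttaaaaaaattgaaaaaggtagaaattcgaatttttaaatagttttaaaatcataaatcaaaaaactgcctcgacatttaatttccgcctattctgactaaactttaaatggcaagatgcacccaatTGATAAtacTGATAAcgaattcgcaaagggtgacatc
clec-137: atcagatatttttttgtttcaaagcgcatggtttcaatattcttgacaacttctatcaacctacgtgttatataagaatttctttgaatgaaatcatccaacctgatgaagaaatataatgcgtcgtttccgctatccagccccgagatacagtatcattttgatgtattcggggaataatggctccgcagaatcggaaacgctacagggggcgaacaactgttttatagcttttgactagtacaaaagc
clec-196: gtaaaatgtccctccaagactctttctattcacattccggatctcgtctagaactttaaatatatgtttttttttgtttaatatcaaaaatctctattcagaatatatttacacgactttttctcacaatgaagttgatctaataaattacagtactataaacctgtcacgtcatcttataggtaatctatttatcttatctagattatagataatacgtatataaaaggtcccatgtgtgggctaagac
The motif occurs 4 times before *clec-51*, 3 times before *clec-52* and 2 times before *clec-4*, and it is missing from the windows of *clec-137* and *clec-196*.

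Over the family, TGATAA on either strand was present in the 250 bases before 116 of 239 protein-coding members (48.5%), against 5347 of 19973 protein-coding promoters of the genome (26.8%). GTAAACA, the motif of the FOXO factor DAF-16, was present in 7 members (2.93%) and in 871 promoters of the genome (4.36%). By pattern of change, TGATAA was present in 14 of 23 coding members that were higher in both alleles (60.9%), in 13 of 35 that were higher in *glm27* alone (37.1%), in 5 of 14 that were lower in *tm1452* alone (35.7%), in 0 of 5 that were lower in *tm1452* and higher in *glm27*, and in 41 of 64 that were called in neither allele (64.1%). These shares describe the sequences, since the groups were formed from the expression calls, and a match in a window is not a binding site.

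**Figure D1:**
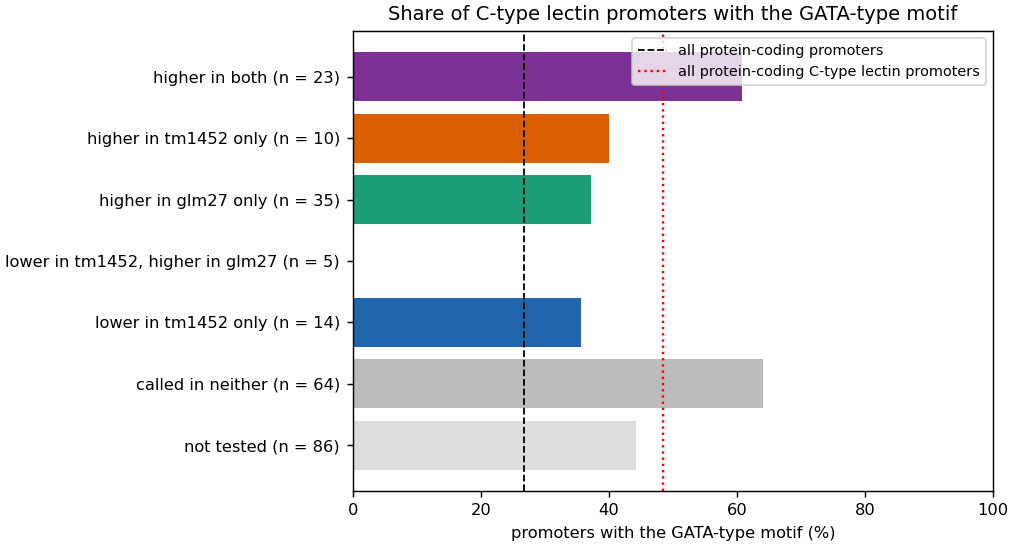
Horizontal bars give the percent of C-type lectin promoters (250 bases before the gene start) with the GATA-type motif on either strand, for each pattern of mRNA call and for members too low to test, with the number of coding members in brackets. The dashed line marks all protein-coding promoters (26.8%) and the dotted line all coding members (48.5%), and members called in neither allele and members higher in both lie to the right of both lines.

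The family was expressed very unevenly. Of the 264 members, 30 were at 0 in all 9 libraries, 76 more had a mean under 2 and were not tested, and 158 were tested, 5 of them pseudogenes. Among all members, 110 had a mean of at least 10 normalized counts, 53 of at least 100 and 11 of at least 1000. The summed count of the family was 70185, 73107 and 75184 in wildtype, 63729, 68034 and 64858 in *tm1452*, and 80061, 80994 and 82018 in *glm27*. The family sum was thus lowest in *tm1452* and highest in *glm27*, with no overlap between the genotypes, and made up 0.274 to 0.365% of all normalized counts. Abundant members weigh most in this sum. *clec-87* alone had a mean of 25388 in wildtype, 16269 in *tm1452* and 18282 in *glm27*.

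In *tm1452* the family changed in both directions, with 37 of 158 tested members called higher and 20 lower (23.4 and 12.7%). A call needed an adjusted p under 0.05 in limma and a change of at least 2-fold. Over all 17037 mRNAs tested, 20.2% were called higher and 7.51% lower, so the share of members called higher lay near that of all mRNAs. In *glm27* the family rose, with 66 called higher (41.8%, against 14.5% of all mRNAs) and 2 lower (1.27%, against 2.07%). At any size, 99 members passed the test as higher (62.7%, against 33.2%) and 11 as lower (6.96%, against 27.5%). The median log2 fold change of the tested members was 0.11 in *tm1452* and 0.84 in *glm27*, against 0.02 and 0.13 over all mRNAs tested, and without the 6 tested members that were at 0 in all wildtype libraries it was 0.11 and 0.81. Both comparisons share the wildtype libraries. Of the tested members, 30 had a wildtype mean under 2, and 17 passed the filter only through *glm27*, 2 only through *tm1452* and 1 only through wildtype, so that part of the calls was fixed by the filter. With a filter at a mean of 10, 44 of 110 members were called higher and 1 lower in *glm27*, and 27 higher and 15 lower in *tm1452*. The share of all mRNAs called at that filter was not determined, so these counts have no such comparison.

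Set against each other, the alleles differed more in this family than in all mRNAs. In the direct comparison 49 members were lower in *tm1452* than in *glm27* (31%, against 8.08% of all mRNAs) and 18 were higher (11.4%, against 11.4%). By pattern, 26 members were higher in both alleles (16.5%, against 11% of all mRNAs), 35 higher in *glm27* alone (22.2%, against 3.22%), 11 higher in *tm1452* alone (6.96%, against 9.11%), 14 lower in *tm1452* alone (8.86%, against 6.05%) and 5 lower in *tm1452* but higher in *glm27* (3.16%, against 0.229%). A call in one allele alone does not show a difference between alleles, which the direct comparison tested. No member was higher in *tm1452* and lower in *glm27* (0.0352% of all mRNAs). *clec-4* was the one member lower in both (1.24% of all mRNAs) and *clec-17* the one lower in *glm27* alone (0.798%), and 65 members (41.1%, against 68.3%) were called in neither.

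**Figure D2:**
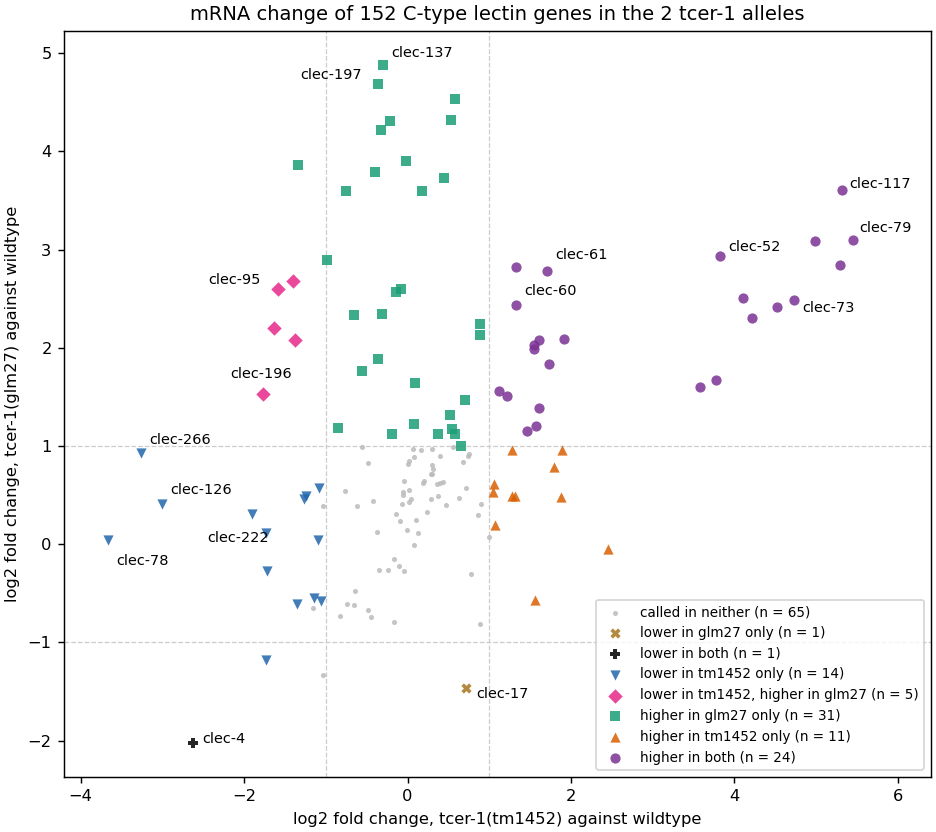
Each symbol is one of 152 tested C-type lectin genes, placed by its log2 fold change in *tm1452* (horizontal) and in *glm27* (vertical) against wildtype, on the scale of log2 of the normalized count plus 1. The 6 tested members at 0 in every wildtype library are not drawn, dashed lines mark 2-fold changes, and the members higher in *glm27* alone form a column above the centre that reaches a log2 fold change of 4.88 for *clec-137*. That gene passed the filter on low values only through *glm27*.

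The largest rises in *tm1452* were those of *clec-79*, *clec-117*, *clec-153*, *clec-151* and *clec-73*, and all of these also rose in *glm27*, but less. *clec-79* was at 3.54, 12.5 and 5.67 in wildtype, 279, 355 and 344 in *tm1452* and 57.9, 69.0 and 60.97 in *glm27*. Its log2 fold change was 5.45 ± 0.30 (SE, adjusted p = 1.1e-09) in *tm1452* and 3.09 ± 0.30 (adjusted p = 7.6e-07) in *glm27*, and its difference between the alleles was 2.36 ± 0.30 (adjusted p = 1.8e-05). The 3 genotypes did not overlap, with *glm27* in between. *clec-73*, on the same stretch of chromosome IV, followed the same order, at 8.84, 16.7 and 11.3, then 331, 316 and 384, then 70.2, 63.6 and 80.7, with log2 fold changes of 4.73 ± 0.20 (adjusted p = 7.5e-11) and 2.48 ± 0.20 (adjusted p = 1.5e-07). *clec-117* was at 0, 0 and 2.28 in wildtype, 48.8, 61.4 and 64.9 in *tm1452*, and 19.8, 14.4 and 17.7 in *glm27* (log2 fold changes of 5.31 ± 0.43 and 3.61 ± 0.43). Neither *clec-73* nor *clec-117* overlapped between any 2 genotypes. Fold changes are on the scale of log2 of the value plus 1 and understate the change of such low genes.

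*clec-151*, *clec-152*, *clec-153* and *clec-154* lie side by side on chromosome III, from 4628465 to 4640562, and all 4 were called higher in both alleles. *clec-151* was at 3.54, 8.36 and 5.67 in wildtype, 202, 196.2 and 221.9 in *tm1452*, and 45.6, 59.2 and 60.98 in *glm27*, for log2 fold changes of 4.98 ± 0.25 (adjusted p = 3.6e-10) and 3.09 ± 0.25 (adjusted p = 1.3e-07). *clec-153* was at 0.88, 3.13 and 2.27, then 99.2, 119.1 and 125.1, then 16.1, 20.6 and 24.4, with log2 fold changes of 5.29 ± 0.31 and 2.84 ± 0.31. The pseudogene *clec-154* was listed at 0 in all wildtype libraries and reached 20.2, 30.1 and 16.3 in *tm1452* and 3.79, 4.48 and 0.94 in *glm27*. Its call in *glm27* was lost with a pseudocount of 5 (log2 fold change 0.66). In each of these genes the *glm27* libraries lay below the *tm1452* libraries without overlap. The 4 genes share 10.0 to 18.8% of their exonic stretches of 50 bases with other places in the genome and lie opposite *pfas-1*, an enzyme gene of purine synthesis, which itself rose by 1.48 ± 0.05 and 1.31 ± 0.05 on the log2 scale, so their values are uncertain where the counting did not use strand, which the sources used here do not state.

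The coding genes *clec-151* and *clec-153*, with *clec-73* and *clec-79*, belong to a set of 8 members (*clec-73*, *clec-79*, *clec-119*, *clec-123*, *clec-142*, *clec-151*, *clec-153* and *clec-175*) for which the small RNA table holds rows of the ALG-3/4 pathway, a pathway known from spermatogenesis. ALG-3 and ALG-4 are Argonautes of the developing male germline, which bind 26-nucleotide RNAs (26G-RNAs) and lead to 22-nucleotide RNAs (22G-RNAs) made against the same mRNAs. All 8 mRNAs were called higher in *tm1452* and 7 of them in *glm27*, and 7 were higher in *tm1452* than in *glm27*. Over all mRNAs tested the shares were 20.2, 14.5 and 11.4%, in the same order. *clec-123* was at 17.7, 12.5 and 12.5 in wildtype, 324, 347 and 368 in *tm1452* and 81.6, 86.95 and 70.35 in *glm27* (log2 fold changes of 4.53 ± 0.16 and 2.42 ± 0.16), and *clec-142* was the one not called in *glm27*, where its log2 fold change was 0.49 ± 0.31 (adjusted p = 0.18). The major sperm protein mRNAs moved in the same order of genotypes (30 of 30 tested called higher in each allele, median log2 fold changes of 4.90 and 2.72), and their part in the result was not tested.

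Other members rose in both alleles without any such rows, and 2 neighbours on chromosome IV were more abundant. *clec-52* was at 74.0, 88.8 and 78.4 in wildtype, 1138, 1095 and 1210.5 in *tm1452* and 622, 604 and 636 in *glm27*. Its log2 fold change was 3.82 ± 0.08 (adjusted p = 8.2e-14) and 2.94 ± 0.08 (adjusted p = 3.3e-12), and all libraries of each genotype stood apart from those of the others. Its neighbour *clec-51* rose by 1.57 ± 0.09 and 1.202 ± 0.09, from 204, 179 and 200.1 in wildtype to 574, 618 and 551 and to 404, 468 and 476. It overlaps *faah-1* on the other strand. *clec-165*, *clec-166*, *clec-168* and *clec-169*, of a run of 6 members on chromosome IV between 1245171 and 1274425, were also higher in both. Within that run *clec-166* was at 108, 109 and 107 in wildtype, 312, 366 and 319 in *tm1452*, and 524, 398 and 463 in *glm27*, the reverse order of the alleles from *clec-52*. Of 6 intestinal markers, 4 passed the test as higher at any size in *tm1452* and 5 in *glm27* (median log2 fold changes of 0.59 and 0.58). The 6 vitellogenin genes, also of the adult intestine, went the other way in *tm1452*. There 6 passed the test as lower at any size, and in *glm27* 1 passed as higher and 0 as lower (medians of -0.73 and 0.15). Of all mRNAs, 35.3% passed so as higher and 34.1% as lower in *tm1452*, and 33.2 and 27.5% in *glm27*. The part of either list in the result was not tested.

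**Figure D3:**
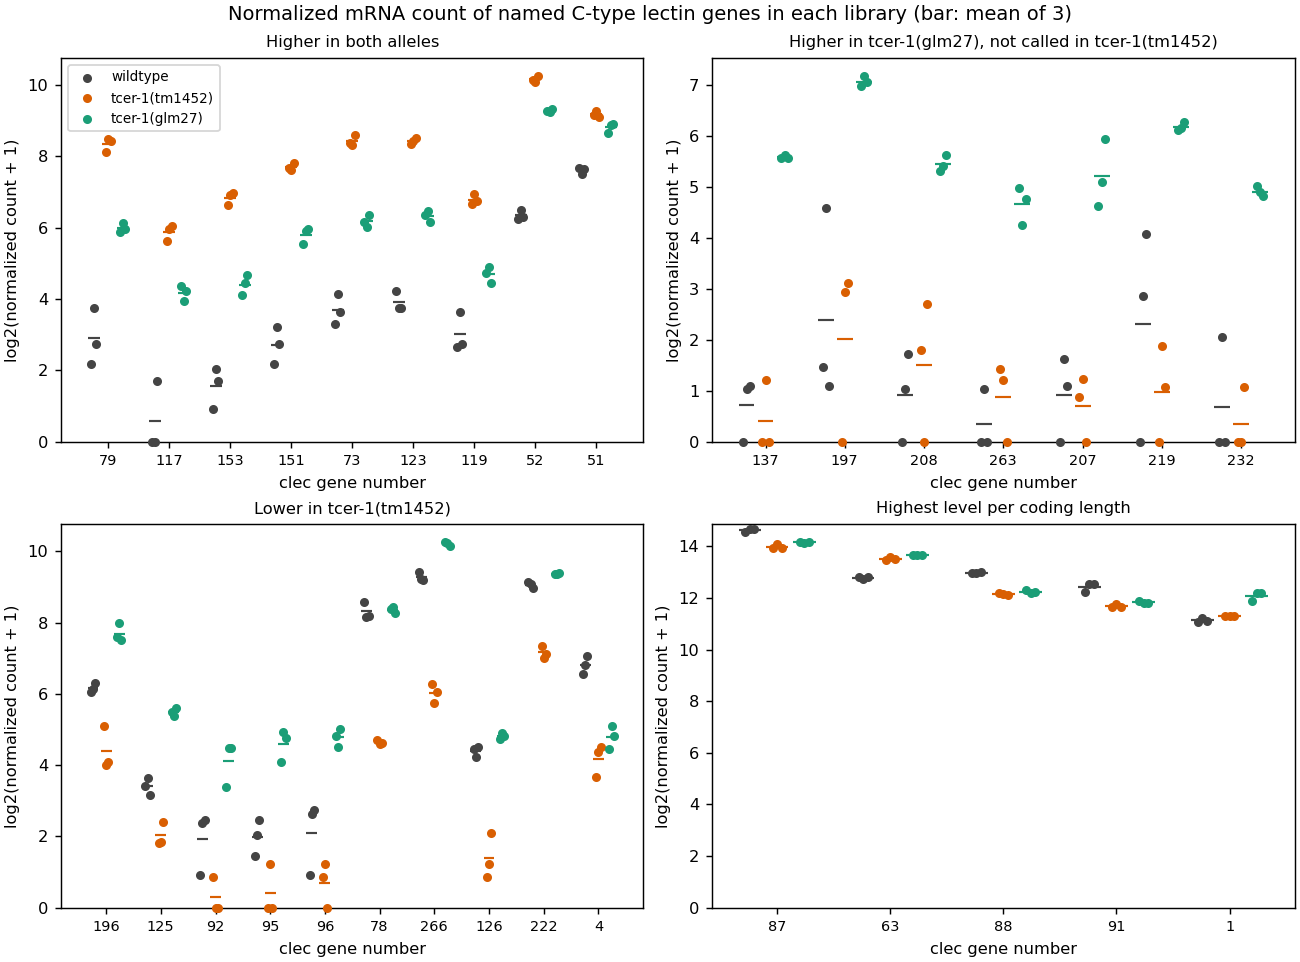
Points are single libraries (3 per genotype) and short bars their means, on a vertical scale of log2 of the normalized count plus 1, for members in 4 groups named above each panel. In the first panel *glm27* lies between wildtype and *tm1452*, in the second it stands far above both, and in the third *tm1452* is lowest or, for *clec-4*, close to *glm27*.

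The members that rose in *glm27* alone were low in the other genotypes, with a median of 1.75 normalized counts in wildtype, 2.31 in *tm1452* and 29.0 in *glm27* over the 35 genes. The 35 were grouped by these same calls, and 17 of all tested members passed the filter only through *glm27*. Their medians were thus in part fixed by the selection. *clec-137* and *clec-138* are among those 17 members, so their calls in *glm27* were in part fixed by the filter. *clec-137* was at 0, 1.04 and 1.14 in wildtype, 0, 1.33 and 0 in *tm1452*, and 46.3, 48.5 and 46.6 in *glm27*. Its log2 fold change was 4.88 ± 0.49 in *glm27* (adjusted p = 1e-06) and -0.30 ± 0.49 in *tm1452* (adjusted p = 0.59), and the alleles differed by -5.18 ± 0.49 (adjusted p = 9.2e-07). Its neighbours *clec-136* and *clec-138* showed the same pattern, and in the run *clec-136* to *clec-139* all 4 members were called higher in *glm27*. This run lies opposite *pqn-35*, which rose by 1.16 ± 0.16 in *tm1452* and by 0.52 ± 0.16 in *glm27*, the reverse order of the alleles.

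*clec-197*, *clec-207*, *clec-208* and *clec-263* completed the 5 largest rises in *glm27*. *clec-197* was at 125.5, 142.9 and 131 in that allele, 0, 6.63 and 7.67 in *tm1452*, and 1.76, 22.998 and 1.14 in wildtype, where the second library stood apart, and its log2 fold change of 4.69 ± 0.85 (adjusted p = 0.00023) ranged from 4.04 to 5.79 when single libraries were left out. The tandem pair *clec-207* and *clec-208* on chromosome V reached 23.6, 33.3 and 60.6 and 38.7, 41.4 and 48.5 in *glm27*, against at most 2.28 in wildtype and 5.49 in *tm1452*. Both lay clear of the other genotypes, and they share 11.4 and 11.6% of their exonic stretches of 50 bases with other places in the genome. *clec-263* was at 30.4, 17.9 and 26.3 in *glm27* and at most 1.68 elsewhere. *clec-219* was at 68.0, 70.1 and 76.5 in *glm27* and at 0, 6.27 and 15.9 in wildtype, and without wildtype replicate 1 it was called lower in *tm1452* (log2 fold change -2.49). *clec-208* was called higher in *tm1452* without replicate 2 of that allele (1.34). *clec-232* was at 31.2, 28.7 and 27.1 against 0, 3.13 and 0. In all 3 *glm27* libraries these genes stood above every library of the other genotypes. *clec-107*, *clec-133* and *clec-134* were listed at 0 in all wildtype and *tm1452* libraries. In *glm27*, *clec-107* reached 14.2, 8.91 and 7.03, *clec-133* reached 10.3, 7.21 and 13.9, and *clec-134* reached 9.46, 19.8 and 18.7. *clec-263*, *clec-107*, *clec-133* and *clec-134* passed the filter only through *glm27*, so their rises were in part fixed by it.

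Of 6 male-specific genes, 4 were called higher in *glm27* and 0 in *tm1452* by limma, with 1 higher in *tm1452* at an unadjusted p under 0.05 (median log2 fold changes of 1.33 and 0.35). Over all mRNAs, 14.5% were called higher in *glm27* and 20.2% in *tm1452*. *pkd-2*, a channel gene of male sensory neurons, was at 0, 1.04 and 1.13 in wildtype, 0, 1.31 and 1.09 in *tm1452* and 9.49, 10.8 and 8.45 in *glm27*. *cwp-4* and *try-5* were not called in *glm27*, with log2 fold changes of -0.24 and 0.85. The part of these genes in the result was not tested.

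More abundant members also rose in *glm27* alone. *clec-48* was at 821, 832 and 864 in wildtype, 1182, 1411 and 1190.3 in *tm1452* and 1869, 1764 and 1851 in *glm27*, a log2 fold change of 1.12 ± 0.07 in *glm27* (adjusted p = 8.4e-09) and of 0.58 ± 0.07 in *tm1452* (adjusted p = 2.5e-06). All genotypes were apart, so this gene passed the test in both alleles and the 2-fold limit in one.

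*clec-92*, *clec-95*, *clec-96*, *clec-125* and *clec-196* were called lower in *tm1452* and higher in *glm27*. *clec-196* had the highest level of them, at 65.2, 69.0 and 78.3 in wildtype, 33.3, 14.98 and 16.1 in *tm1452*, and 193, 252 and 181 in *glm27*. It fell by 1.77 on the log2 scale in the first (SE 0.25, adjusted p = 1.9e-05) and rose by 1.53 ± 0.25 in the second (adjusted p = 9.2e-05), with no overlap between genotypes. *clec-125* went from 9.73, 11.5 and 7.94 to 2.52, 2.62 and 4.35 and to 43.7, 40.3 and 47.9 (log2 fold changes of -1.38 ± 0.31 and 2.08 ± 0.31). The 3 others lie near each other on chromosome I and were low in wildtype, from 0.88 to 5.70, at most 1.34 in *tm1452*, and 9.43 to 31.6 in *glm27*. Their falls in *tm1452* rest on few reads: the calls of *clec-92* and *clec-96* were lost without wildtype replicate 2 (adjusted p = 0.060 and 0.105) and without wildtype replicate 3 (0.068 and 0.118), and that of *clec-96* also without *tm1452* replicate 3 (0.11). Of the 8 moulting genes, 3 were called lower in *tm1452* and 1 in *glm27* (7.51 and 2.07% of all mRNAs). At any size 4 passed the test as lower and 3 as higher in *tm1452* (34.1 and 35.3% of all mRNAs). In *glm27* 1 passed as lower and 5 as higher (27.5 and 33.2%). The median log2 fold changes of the moulting genes were -0.46 and 0.49. Their part in the result was not tested.

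The largest falls in *tm1452* were those of *clec-78*, *clec-266*, *clec-126*, *clec-4* and *clec-222*. *clec-78* was at 385, 286 and 293 in wildtype, 25.4, 23.4 and 23.8 in *tm1452*, and 334, 344 and 306 in *glm27*. It fell by 3.66 on the log2 scale in *tm1452* (SE 0.13, adjusted p = 8.7e-12), had a log2 fold change of 0.04 ± 0.13 in *glm27* (adjusted p = 0.80), where its libraries lay among those of wildtype, and it lies just beyond the run of neighbours that ends with *clec-79*, the member with the largest rise. *clec-266*, on the X chromosome, was at 692, 603 and 587 in wildtype, 77.1, 52.8 and 65.1 in *tm1452*, and 1220.4, 1214 and 1132 in *glm27*. Its log2 fold change was -3.26 ± 0.11 (adjusted p = 9.6e-12) and 0.92 ± 0.11 (adjusted p = 7.7e-06), so it passed the test in both directions but not the 2-fold limit in the second. *clec-126* dropped from 21.1, 17.8 and 21.6 to 0.83, 1.32 and 3.28 in *tm1452* and was at 25.5, 28.7 and 27.1 in *glm27*. *clec-222* was at 568, 538 and 506 in wildtype, 163, 128 and 139 in *tm1452*, and 658, 654 and 677 in *glm27* (log2 fold changes of -1.90 ± 0.09 and 0.30 ± 0.09). In these 4 genes every *tm1452* library lay below every other library. *clec-266* overlaps *kqt-1* on the other strand, which had a log2 fold change of -0.99 ± 0.25 in *tm1452*, and *clec-78* overlaps 7 genes on the other strand. Among those 7, W02C12.2 had a log2 fold change of 1.05 ± 0.26 in *tm1452*, and the rest were at most 2.80 in any library.

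*clec-4* fell in both alleles. It was at 92.7, 111 and 134 in wildtype, 11.7, 19.7 and 21.8 in *tm1452*, and 20.9, 33.2 and 27.2 in *glm27*. Its log2 fold change was -2.63 ± 0.26 (adjusted p = 5.3e-07) and -2.02 ± 0.26 (adjusted p = 1e-05), both mutants lay below wildtype in all libraries, and the alleles overlapped (difference -0.60 ± 0.26, adjusted p = 0.070). Its neighbour *clec-8* was at 54.8, 62.7 and 66.9 in wildtype, 35.3, 45.9 and 43.5 in *tm1452*, and 120.4, 135 and 113 in *glm27*, with log2 fold changes of -0.56 ± 0.16 (adjusted p = 0.0066) and 0.99 ± 0.16 (adjusted p = 9.5e-05). *clec-17* was called lower in *glm27* alone, from 7.95, 4.18 and 2.27 to 0, 0.90 and 2.81 (log2 fold change -1.46 ± 0.57, adjusted p = 0.037), with overlapping libraries. Its call was lost without replicate 1 or 2 of either wildtype or *glm27* (adjusted p = 0.0678 to 0.154).

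A list of 12 lectins known from infection studies was followed as a group. It holds *clec-60*, a common marker of the intestinal response to Gram-positive bacteria, *clec-39* and *clec-49*, which act in resistance to *Serratia marcescens*, and *clec-67* and *clec-85*, targets of the p38 kinase pathway. The list was chosen with earlier results of these data known. Of its 11 tested members, 2 were called higher and 3 lower in *tm1452* (18.2 and 27.3%, against 20.2 and 7.51% of all mRNAs), and 3 higher and 1 lower in *glm27* (27.3 and 9.09%, against 14.5 and 2.07%). The median log2 fold change was 0.10 and 0.44, against 0.02 and 0.13 over all mRNAs tested, and with a filter at a mean of 10 the first was -0.16. The list sum was between 3603 and 4050 in wildtype, 3135 and 3440 in *tm1452*, and 4847 and 5128 in *glm27*.

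*clec-60* and *clec-61* rose in both alleles. *clec-60* was at 6.18, 7.31 and 3.40 in wildtype, 13.4, 15.7 and 16.3 in *tm1452*, and 38.9, 26.01 and 37.5 in *glm27*, for log2 fold changes of 1.33 ± 0.32 (adjusted p = 0.0017) and 2.43 ± 0.32 (adjusted p = 1.2e-05). Its neighbour *clec-61* was at 1.77, 1.04 and 2.27, then 10.9, 5.25 and 7.63, then 18.9, 17.9 and 14.98, for 1.71 ± 0.38 (adjusted p = 0.0011) and 2.78 ± 0.38 (adjusted p = 2e-05). Both were higher in every mutant library than in wildtype, and both were low genes. *clec-60* overlaps an annotated gene on its own strand, which was at 0 in all mRNA libraries. The third, *clec-49*, rose from 302, 346 and 307 to 719, 696 and 740 in *glm27* (log2 fold change 1.17 ± 0.07, adjusted p = 1.2e-08) and was at 440, 485 and 470.5 in *tm1452* (0.55 ± 0.07, adjusted p = 1.1e-05), below the 2-fold limit. It shares 17.8% of its exonic stretches with other places in the genome.

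*clec-4*, *clec-66* and *clec-70* were the members of the list called lower in *tm1452*. *clec-66* was at 271, 263.2 and 305 in wildtype, 148, 119.5 and 135 in *tm1452*, and 168, 181 and 213 in *glm27* (log2 fold changes of -1.06 ± 0.12 and -0.58 ± 0.12), and *clec-70* at 42.4, 36.6 and 48.8, 20.1, 14.4 and 21.8, and 28.4, 25.1 and 32.8 (-1.15 ± 0.24 and -0.55 ± 0.24). Both lay near the 2-fold limit in *tm1452*, and without replicate 2 of that allele the log2 fold change was -0.98 for each, and without wildtype replicate 3 it was -0.99 for *clec-66*. *clec-41*, the most abundant of the list, was at 1861, 1791.5 and 2056 in wildtype, 1291, 1614 and 1377 in *tm1452*, and 2541, 2536 and 2640.5 in *glm27*, so it passed the test in opposite directions with small changes (-0.42 ± 0.07 and 0.44 ± 0.07), and 34.1% of its exonic stretches occur elsewhere. *clec-65*, *clec-67* and *clec-85* had log2 fold changes between -0.79 and 0.65 in either allele, *clec-42* was at 0 to 7.31 in all libraries, and *clec-39* was too low to test, with at most 1.04.

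**Figure D4:**
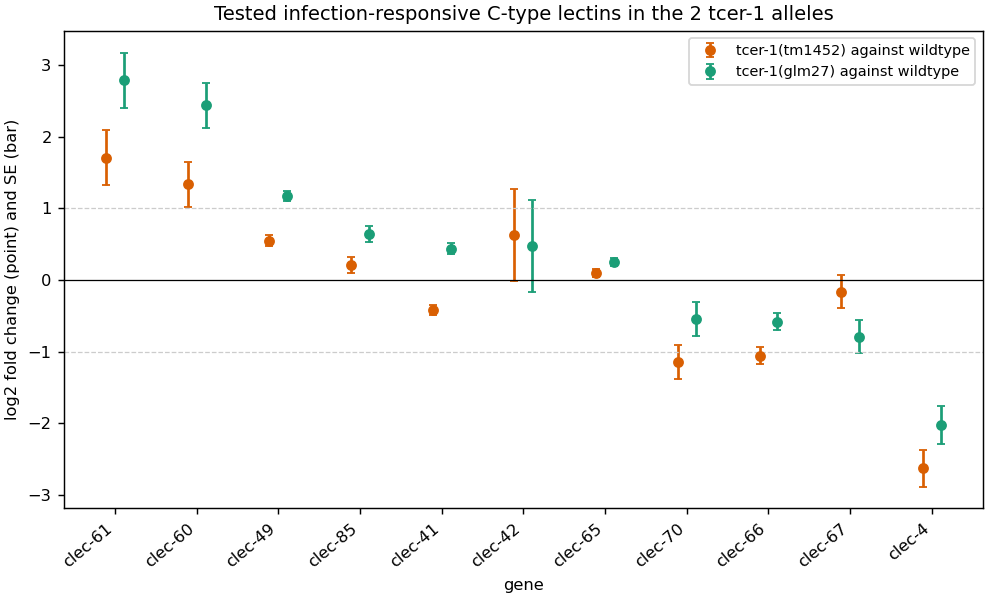
Points give the log2 fold change of the 11 tested infection-responsive C-type lectins against wildtype in *tm1452* and *glm27*, and bars the standard error from limma. Dashed lines mark 2-fold changes. *clec-61* and *clec-60* lie above the upper line and *clec-4* below the lower line in both alleles.

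Around the lectins, 15 regulators of immunity, among them the p38 kinase *pmk-1* and its upstream kinases *sek-1* and *nsy-1*, moved by less than 2-fold. No regulator was called in either allele by limma with the 2-fold limit. At an unadjusted p under 0.05, 6 were higher and 4 lower in *tm1452*, and 5 higher and 4 lower in *glm27*. The counts were the same at an adjusted p under 0.05 at any size. Of all mRNAs, 35.3 and 34.1% passed so in *tm1452*, and 33.2 and 27.5% in *glm27*. Of 13 tested immune effectors outside the family, 2 were called higher and 4 lower in *tm1452*, and 1 higher and 4 lower in *glm27*. Over all mRNAs, 20.2 and 7.51% were called higher and lower in *tm1452*, and 14.5 and 2.07% in *glm27*. C17H12.8, an infection-induced CUB-domain gene, was at 893, 903 and 867 in wildtype, 287, 348 and 322 in *tm1452* and 185, 201 and 212 in *glm27*, and the saposin-like antimicrobial gene *spp-1* at 587, 669 and 643, 652, 525 and 652, and 1515, 1649 and 1775.

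The 5 members with the highest level per coding length were *clec-87*, *clec-63*, *clec-88*, *clec-91* and *clec-1*. Per 1000 coding bases, the mean normalized count of *clec-87* was 36320.4 in wildtype, 23275 in *tm1452* and 26155 in *glm27*. Its normalized count was 24269.6, 25756 and 26138 in wildtype, 15787, 17334 and 15686 in *tm1452*, and 18587, 18060 and 18200 in *glm27*. It was below wildtype in all mutant libraries, by a log2 fold change of -0.64 ± 0.05 (adjusted p = 8.6e-08) and -0.47 ± 0.05 (adjusted p = 3.1e-06). *clec-88* and *clec-91* fell by similar amounts, with log2 fold changes of -0.83 ± 0.05 and -0.74 ± 0.05 for *clec-88*, and of -0.75 ± 0.07 and -0.61 ± 0.07 for *clec-91*. None of the 3 reached the 2-fold limit. *clec-91* overlaps ZK858.8 on the other strand, which rose by 3.81 ± 0.22 and 1.69 ± 0.22, and *clec-88* overlaps *ctsa-4.1* on its own strand (0.63 ± 0.10 and 0.18 ± 0.10). *clec-63* instead rose in both, from 7102, 6715 and 7262 to 11254, 12310.1 and 11670 and to 13036, 13063 and 13074 (log2 fold changes of 0.74 ± 0.05 and 0.89 ± 0.05), and *clec-1* rose in *glm27* (0.95 ± 0.07). The change of *clec-1* passed 2-fold with equal upper quartiles (1.04), without *glm27* replicate 1 (1.05) and without wildtype replicate 2 (1.0043). The 5 members of highest mean held 67.8 to 68.3% of the family sum in wildtype, 61.4 to 62.5% in *tm1452* and 55.3 to 56.9% in *glm27*.

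The 3 that fell, *clec-87*, *clec-88* and *clec-91*, were also the members with 22G-RNAs of the CSR class, small RNAs that the Argonaute CSR-1 binds and that are made against genes expressed in the germline. Of 8 germline and oocyte markers, 7 passed the test as lower at any size in *tm1452* and 8 in *glm27* (34.1 and 27.5% of all mRNAs). These markers had median log2 fold changes of -0.69 and -0.68, and none passed by 2-fold. Their part in the result was not tested. The 22G-RNAs of *clec-88* were at 6.29, 5.14 and 5.64 RPM (reads scaled to library depth) in wildtype, 3.02, 1.62 and 2.81 in *tm1452* and 3.87, 3.01 and 2.77 in *glm27*, below wildtype in all libraries (log2 fold changes of -0.96 ± 0.19 and -0.67 ± 0.19, adjusted p = 0.0027 and 0.015). Those of *clec-87* lay between 10.4 and 14.3 in all libraries (0.03 ± 0.11 and -0.06 ± 0.11).

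Among the small RNAs, 17 members had 26 rows, and 9 rows of 22G-RNAs in the WAGO and CSR classes were tested. WAGO 22G-RNAs are bound by worm-specific Argonautes and silence their target mRNAs. In *tm1452* 1 row was called higher and 0 lower by limma, against 3.73 and 10.9% of all 7376 small RNA features tested, and at an unadjusted p under 0.05, 2 were higher and 5 lower. In *glm27* 0 were called higher and 1 lower, against 1.68 and 9.08%, and at an unadjusted p under 0.05, 2 were higher and 4 lower. The share of all small RNA features at the unadjusted threshold was not determined, so those counts have no such comparison. All small RNA features had a median log2 fold change of -0.33 in both alleles on this scale, which was -0.04 and 0.02 after rescaling the libraries to equal upper quartiles.

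The 22G-RNAs of *clec-12* were called higher in *tm1452*, at 12.02, 11.3 and 12.02 RPM in wildtype, 23.2, 23.3 and 28.3 in *tm1452* and 14.04, 15.5 and 16.5 in *glm27*. The log2 fold change was 1.02 ± 0.10 (adjusted p = 4.3e-05) and 0.35 ± 0.10 (adjusted p = 0.014), and no genotype overlapped another. The first lies at the 2-fold limit and was under it without wildtype replicate 2, without *tm1452* replicate 3 and on the scale of equal miRNA totals. The mRNA of *clec-12* was at 78.6, 61.6 and 72.7 in wildtype and 54.5, 49.9 and 58.8 in *tm1452*, below wildtype in all libraries but with a log2 fold change of -0.37 ± 0.18 that did not pass the test (adjusted p = 0.077).

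The 22G-RNAs of *clec-119* were called lower in *glm27*, at 14.3, 16.6 and 16.6 RPM in wildtype, 8.60, 8.09 and 10.2 in *tm1452* and 5.61, 6.78 and 8.05 in *glm27*. The log2 fold change was -0.76 ± 0.13 (adjusted p = 0.0018) and -1.12 ± 0.13 (adjusted p = 0.0002), and the second was not called on the scales of equal upper quartiles and median-of-ratios. Its mRNA rose at the same time, from 5.31, 11.5 and 5.67 to 101, 122 and 107 in *tm1452* and to 25.6, 28.7 and 20.6 in *glm27*, a log2 fold change of 3.77 ± 0.28 (adjusted p = 2.2e-08) and 1.67 ± 0.28 (adjusted p = 1e-04). The 22G-RNAs were below wildtype and the mRNA above it in all libraries of both mutants, and the 22G-RNAs differed between the alleles by 0.36 ± 0.13 (adjusted p = 0.089). The WAGO and the ALG target rows of this gene hold the same values.

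The 26G-RNAs of the ALG class were few and were below the level tested. For *clec-119* they were at 0.14, 0.35 and 0.23 RPM in wildtype, 3.09, 3.98 and 3.18 in *tm1452*, and 1.32, 1.41 and 0.34 in *glm27*. At these counts only the order of libraries is given. In 6 of the 8 loci every *tm1452* library was above every wildtype library, and in 1 of 8 (*clec-151*) every *glm27* library was, against 74.2 and 34.7% of all 1399 ALG class rows, so the first lay near the share of all such rows. The 22G-RNAs listed for ALG targets were higher in this sense at 7 of 8 loci in *tm1452* and 3 of 8 in *glm27* (56 and 25.9% of all 1399 such rows), and lower at *clec-119* in both (20.9 and 29%).

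**Figure D5:**
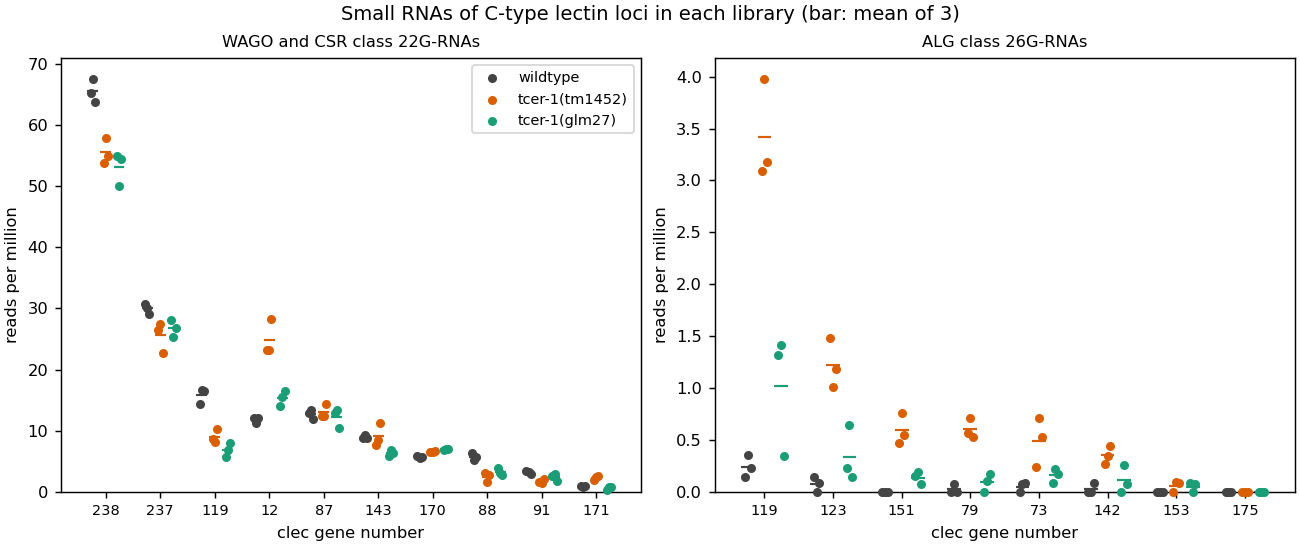
Points are single small RNA libraries (3 per genotype) and short bars their means, in RPM, for the WAGO and CSR class 22G-RNAs (left) and the ALG class 26G-RNAs (right) of C-type lectin loci, *clec-171* on the left being too low to test. The 22G-RNAs of *clec-12* are highest in *tm1452*, those of *clec-119* are lower in both mutants, and the 26G-RNAs of *clec-119* and *clec-123* are highest in *tm1452*.

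C-type lectin genes lie in tandem, and 177 of the 264 members fell into 52 runs of neighbours no more than 10 kb apart, the longest of 15 genes on chromosome V. Chromosome V held 96 members, IV 58, II 51, I 38, III 18 and X 3. On chromosome V 48 of the 96 members were tested, and 17 of those tested were called higher in *glm27* (35.4%) and 5 in *tm1452* (10.4%). On chromosome IV 15 of 42 were called higher in *glm27* (35.7%) and 13 in *tm1452* (31%). Chromosomes I, II and III, with 17, 35 and 13 tested members, had higher shares in *glm27* (58.8, 45.7 and 53.8%). In *tm1452* their shares were 5.88, 31.4 and 46.2%. Over all mRNAs on any chromosome the shares were 14.5 and 20.2%. In the run *clec-151* to *clec-154*, 4 of 4 members were called higher in both alleles, against 11% of all mRNAs. The call of *clec-154* in *glm27* was lost with a pseudocount of 5. In the run *clec-136* to *clec-139*, 4 of 4 were called higher in *glm27* and 1, *clec-139*, in *tm1452*. In the run of 15, which holds *clec-22* and *clec-40*, 9 were tested, with 1 higher and 1 lower in *tm1452* and 1 higher in *glm27*. The run *clec-62* to *clec-66* had 5 tested members, of which *clec-64* was called higher and *clec-66* lower in *tm1452* and none in *glm27*. Of the tested members, 102 had no overlapping gene and no more than 5% of their exonic stretches of 50 bases elsewhere in the genome. Among these 102, 43 (42.2%) were called higher in *glm27* and 22 (21.6%) in *tm1452*, and 34 (33.3%) were lower in *tm1452* than in *glm27*, shares close to those of all tested members.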

How the data were processed

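The mRNA values deposited by the authors are a signal, normalized counts per gene: reads were cleaned with fastp, mapped to WormBase WS279 and quantified with STAR and RSEM, and divided by DESeq2 size factors. The small RNA values are RPM, reads scaled to library depth, deposited by the authors from the tinyRNA pipeline. The mRNA kit keeps strand, and the strand setting of the counting is not given in the sources used here. Neither table holds whole reads, so no count test was run. After dropping features whose mean across the 9 libraries of a kind was below 2, 17037 mRNAs and 7376 small RNA features of 6 classes entered limma 3.58.1 (R 4.3.3) on log2 of the value plus 1. One fit with a mean-variance trend held the 3 genotypes, and p-values were adjusted by Benjamini-Hochberg over every feature of a comparison. Called features passed 0.05 on the adjusted p and 2-fold in size. The method was tested on simulated data.

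Positions, coding lengths and overlaps came from the Ensembl annotation of WBcel235, with bases from the RefSeq copy of that assembly. Protein motifs named in the design were not counted. The members and gene lists were chosen with earlier results of these data known. Named genes are the infection-responsive list, the 5 largest called changes in each direction per comparison, members called in opposite directions, members whose 22G-RNAs were called and the 5 highest per coding length. Others, such as *clec-8*, *clec-48*, *clec-51*, *clec-52*, *clec-123* and *clec-166*, the male-specific list and the promoters shown were chosen after their values were seen. Replicates are biological replicates by their labels. No pair of mRNA libraries of the same genotype held the same values, and the small RNA libraries were not compared in this way. The p-values rest on the spread of the replicates within genotypes, pooled over the 3 genotypes in one fit. Python 3.11.15 with pandas 2.3.3, numpy 2.4.6 and matplotlib 3.10.9 did the rest. The alternatives were pseudocounts of 0.5 and 5, no filter and a filter at a mean of 10, an adjusted p under 0.01, rescaled libraries, fits of 2 groups, no trend, a replicate block and leaving out each library.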

Additional observations from a re-analysis of the deposited data

Results flagged for a closer look

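The *tcer-1* alleles differed in the direct test at 18 members with more and 49 with less mRNA in *tm1452*. Among the named members, the log2 difference of *tm1452* minus *glm27* was positive for *clec-154* (2.60), *clec-155* (2.51), *clec-153* (2.44), *clec-79* (2.36), *clec-73* (2.25), *clec-17* (2.18), *clec-119* (2.10), *clec-151* (1.89) and *clec-117* (1.70). It was negative for *clec-219* (-5.20), *clec-137* (-5.18), *clec-197* (-5.05), *clec-232* (-4.55), *clec-207* (-4.52), *clec-95* (-4.19), *clec-266* (-4.19), *clec-96* (-4.09), *clec-208* (-3.95), *clec-92* (-3.83), *clec-263* (-3.78), *clec-78* (-3.70), *clec-125* (-3.46), *clec-126* (-3.42), *clec-196* (-3.30), *clec-222* (-2.21), *clec-60* (-1.10) and *clec-61* (-1.08). *clec-137* and *clec-263* are among the members that passed the filter only through *glm27*. The pseudogene *clec-155* was at 3.54, 0 and 2.27 in wildtype, 16.8, 31.4 and 3.27 in *tm1452* and 0, 1.79 and 3.75 in *glm27*, its rise in *tm1452* was not called by limma without *tm1452* replicate 2 (adjusted p = 0.0724) or wildtype replicate 2 (0.062), and its difference was not called without *tm1452* replicate 1 (adjusted p = 0.060) or 2 (0.0922) or without *glm27* replicate 1 (0.0871). That of *clec-61* was not called without *tm1452* replicate 2 (0.122) or 3 (0.0694) or without replicate 1 (0.0849), 2 (0.0859) or 3 (0.0565) of *glm27*, and that of *clec-60* was -0.9999 without *glm27* replicate 1, just under the limit.

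In small RNA rows that were not tested, every *tm1452* library stood above every wildtype library at 6 loci with ALG class 26G-RNAs and at 7 with 22G-RNAs of ALG targets, of 8 each, against 74.2 and 56% of all rows of those classes. For *clec-119* the 22G-RNAs of ALG targets lay below wildtype in every library of both mutants.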

How the results depend on the processing

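Depth limits the low members, since 110 of the 158 tested had a mean of at least 10. With a filter at that mean, 45 of 110 members were called in *glm27* (1 of them lower) and 43 between the alleles (30 lower in *tm1452*). In the reported fit these were 68 and 67 of 158. With that filter 3 moved in opposite directions in place of 5. With no filter 7 were lower in *glm27* and 3 lower in both. The members lower in *tm1452*, 20 in the reported fit, were 13 at an adjusted p under 0.01 and 11 with a pseudocount of 5, and those in opposite directions 3 and 1. One member was lower in *glm27* at an adjusted p under 0.01, without the trend, in a fit of the 2 groups or with a pseudocount of 5. The called 22G-RNAs, 2 over both alleles, were 1 with equal upper quartiles, 1 with median-of-ratios and 0 with a pseudocount of 5, and with equal miRNA totals *tm1452* had 2 lower and 0 higher. The members' median log2 fold change in *tm1452* was 0.19 with the filter at 10 and 0 with no filter, and in *glm27* it was 0.79 and 0.52. For these the cause was not tested.

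With single libraries left out, the calls numbered 34 to 38 higher and 16 to 22 lower in *tm1452*, 63 to 67 and 1 to 3 in *glm27*, 16 to 19 and 45 to 50 between the alleles, 24 to 26 higher and 1 to 2 lower in both, 3 to 7 in opposite directions, 7 to 9 for the infection list and 2 to 3 for 22G-RNAs. Members in opposite directions were 3 without wildtype replicate 2, members lower in both then 2, and 1 was lower in *glm27* without wildtype replicate 1. In *tm1452* 1 row of 22G-RNAs was called lower without *tm1452* replicate 1 or 3 or wildtype replicate 2. Of 1236 values of named genes under the other alternatives, 21 lost and 2 gained a call and none of these changed the sign of a called change. Same-numbered libraries did not consistently deviate together (correlations of -0.04 to 0.08 for mRNA and -0.54 to 0.39 for small RNAs), and with a replicate block the counts of calls were the same, 57, 68, 67 and 27 for mRNA and 2 for 22G-RNAs.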
